A study of Mus musculus with 17 samples.

Results

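The nuclei described here were GABAergic neurons with abundant Adarb2 RNA and no Vip RNA, called Adarb2 nuclei below. They were selected on raw RNA counts of 7 genes, among nuclei that the authors labelled neurons, did not call doublets and did not place in cluster 13 of their clustering at resolution 0.4. Each had at least 3 unique molecular identifiers (UMIs, counted RNA molecules) of Gad1 and Gad2 together, and more than 2 times the UMIs of the vesicular glutamate transporters Slc17a7 and Slc17a6. Each also had at least 5 UMIs of Adarb2, 0 of Vip and at most 1 of Sst. Differences between Adarb2 nuclei and other nuclei, or between clusters of them, are therefore given as a description without a test, and tests are kept to comparisons of treatments over animals. The rule found 3611 nuclei, which was 1.27% of the 284074 nuclei in the count table, 2.53% of the 142659 neurons under the same filters and 31.7% of the 11386 GABAergic nuclei.

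The study sequenced RNA of single nuclei from posterior brain of 17 mice aged 2.3 months, all labelled female and all carrying 2 copies of a knocked-in human gene for the transferrin receptor (TfR). The 4 groups received saline (n = 4), the oligonucleotide that targets Malat1 on its own (Malat1 ASO, n = 4), an anti-TfR antibody carrying the oligonucleotide (anti-TfR:Malat1, n = 6) or a TfR-binding transport vehicle carrying it (OTV:Malat1, n = 3). Dosing was intravenous, 4 times at weekly intervals over 24 days, at 2 mg per kg for Malat1 ASO and 50 mg per kg for both carriers, and brains were taken 72 hours after the last dose. All groups shared the knock-in, so no animal with mouse TfR alone was compared.

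GABAergic interneurons inhibit their neighbours by releasing GABA, which Gad1 and Gad2 make. Adarb2, a relative of the RNA-editing enzymes, marks interneurons born in the caudal ganglionic eminence, among them Vip cells and the Lamp5 cells called neurogliaform, which release GABA diffusely onto the tissue around them. Malat1 is an abundant noncoding RNA of nuclear speckles, and an antisense oligonucleotide of this kind directs its cleavage.

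Each animal gave 151 to 264 Adarb2 nuclei and 532603 to 1621723 of their UMIs. The median Adarb2 nucleus had 4500 UMIs, against 4283 in all neurons. The deposited metadata named 4 batches without saying what they were, and OTV:Malat1 was missing from batch 1. Malat1 ASO replicate 1 held 1 UMI of Xist, the noncoding RNA of the inactive X chromosome, in its Adarb2 nuclei (0.77 CPM, counts per 1000000 UMIs), whereas the other 16 animals, all labelled female like it, had 831 to 1288 CPM. Its neurons held 0.28 CPM of 4 Y-linked genes, within the 0.11 to 0.34 CPM of all animals, so these genes did not set it apart. OTV:Malat1 replicate 2 had 306 CPM of 6 oligodendrocyte genes in its Adarb2 nuclei, against 60.8 to 166 CPM in the others. In batch 4, saline replicate 4, Malat1 ASO replicate 4 and OTV:Malat1 replicate 3 had the lowest Malat1 of their groups. The lowest anti-TfR:Malat1 animal was in batch 1. Of the 3611 nuclei, 290 had a barcode that also occurred in another library and 4 shared one with another Adarb2 nucleus.

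Neurogliaform markers such as Lamp5 were concentrated in part of these nuclei. The authors' clusters at resolution 1.0 divided the 3611 nuclei mainly into cluster 2 with 1307 nuclei (36.2%), cluster 17 with 1014 (28.1%) and cluster 4 with 753 (20.9%). Smaller numbers lay in cluster 10 (257, 7.12%), cluster 18 (191, 5.29%) and cluster 23 (52, 1.44%), and 37 lay elsewhere. Every animal contributed at least 31 nuclei to cluster 17 and at least 35 to cluster 2, so neither came from a single library.

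Cluster 17 was neurogliaform-like. All 8 genes of the neurogliaform list (Lamp5, Ndnf, Reln, Npy, Id2, Kit, Sv2c and Hapln1) were higher there than in cluster 2, and their summed level was 3162 against 336 CPM. Lamp5, a lysosome-associated membrane protein, stood at 162 ± 41.0 CPM in cluster 17 and 3.76 ± 3.09 CPM in cluster 2 (mean ± SD, n = 17 animals). Reln, a secreted matrix glycoprotein, stood at 1593 ± 358 and 224 ± 104 CPM. The receptor tyrosine kinase Kit reached 434 ± 65.5 against 19.3 ± 11.8 CPM. For each of these 3 genes, cluster 17 lay above cluster 2 in 17 of 17 animals. The genes that led cluster 17 over the other Adarb2 nuclei were Pde11a, Egfr, Crispld1, Fgf13 and Kit, of which Pde11a (a phosphodiesterase) reached 735 against 84.0 CPM and Egfr (the epidermal growth factor receptor) 699 against 86.4 CPM.

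Cluster 2 carried other genes. It was led by Gm32647, the muscarinic receptor gene Chrm2 (354 against 85.7 CPM in the other Adarb2 nuclei), the homeobox factor Zfhx3 (776 against 218 CPM), the noncoding RNA Rmst and the glypican Gpc5. A list of 8 genes of GABAergic neurons outside the cortex (Meis2, Otx2, Gata3, Tal1, Six3, Pax6, Isl1 and Ppp1r1b) summed to 367 CPM in cluster 2 and 23.8 CPM in cluster 17, of which Meis2 alone made up 254 and 13.4 CPM. Pax6 (5.71 ± 4.34 against 5.31 ± 5.87 CPM) and Ppp1r1b (1.54 ± 1.89 against 1.16 ± 2.22 CPM) differed by less than the spread between animals. Gata3 and Tal1, transcription factors of midbrain and hindbrain GABAergic neurons, stood at 39.4 ± 15.8 and 24.5 ± 16.6 CPM in cluster 2, and at 1.07 ± 2.57 and 0.38 ± 1.07 CPM in cluster 17 (mean ± SD, n = 17). Tcf7l2, a factor found in thalamus and midbrain, showed the same order, at 148 ± 50.4 against 3.72 ± 4.49 CPM. Of 7 genes of interneurons from the caudal ganglionic eminence, 4 were higher in cluster 17, where 42.7% of all genes tested were higher. Among the 4 was Adarb2 (8340 ± 853 against 6201 ± 968 CPM), on which the rule had selected the nuclei of both clusters. Prox1 (105 ± 16.8 against 23.7 ± 11.4 CPM) was another. The 3 higher in cluster 2 were Nr2f2 (50.1 ± 20.4 against 36.8 ± 13.8 CPM), Npas1 (34.9 ± 10.4 against 12.8 ± 8.71 CPM) and Htr3a (6.5 ± 6.62 against 1.91 ± 3.17 CPM). Cluster 2 was left without a cell type name.

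Cluster 10 was led by the unannotated transcript 6530403H02Rik (772 against 5.23 CPM in the other Adarb2 nuclei), followed by Rarb (a retinoic acid receptor, 964 against 33.2 CPM). Further down its list came Rgs9 (a regulator of G-protein signalling known from striatum, 489 against 24.0 CPM). Foxp2 (1936 against 156 CPM) and Meis2 (2037 against 172 CPM) were also among its 10 leading genes. Adarb2 itself was lower in these nuclei, with a median of 9 UMIs against 31 in cluster 17 and 19 in cluster 2. The 52 nuclei of cluster 23 were led by 2610307P16Rik, Tiam2, Igfbpl1, Chd7 and Sox4, the last a factor of immature neurons. Cluster 23 nuclei were shallow, with a median of 1556 UMIs, and had 608 CPM of oligodendrocyte genes, whose part in the cluster was not tested.

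The clusters also differed in depth. Cluster 4 nuclei had a median of 2953 UMIs and cluster 18 nuclei 8725, against 5128 in cluster 2 and 4510 in cluster 17. Cluster 4 lay between clusters 17 and 2 in both lists, with 1951 CPM of neurogliaform genes and 238 CPM of the GABAergic genes from outside the cortex. Its share of an animal's Adarb2 nuclei ran from 6.44% in saline replicate 1 to 52.3% in OTV:Malat1 replicate 3, the animals with the highest and the lowest median depth of Adarb2 nuclei (6003 and 3416 UMIs). Animals of like depth also differed, with 11.4% in OTV:Malat1 replicate 2 at 4260 UMIs and 38.0% in Malat1 ASO replicate 4 at 4148. The share in cluster 4 was not compared between groups, and the part of depth in it was not tested.

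**Figure D1:**
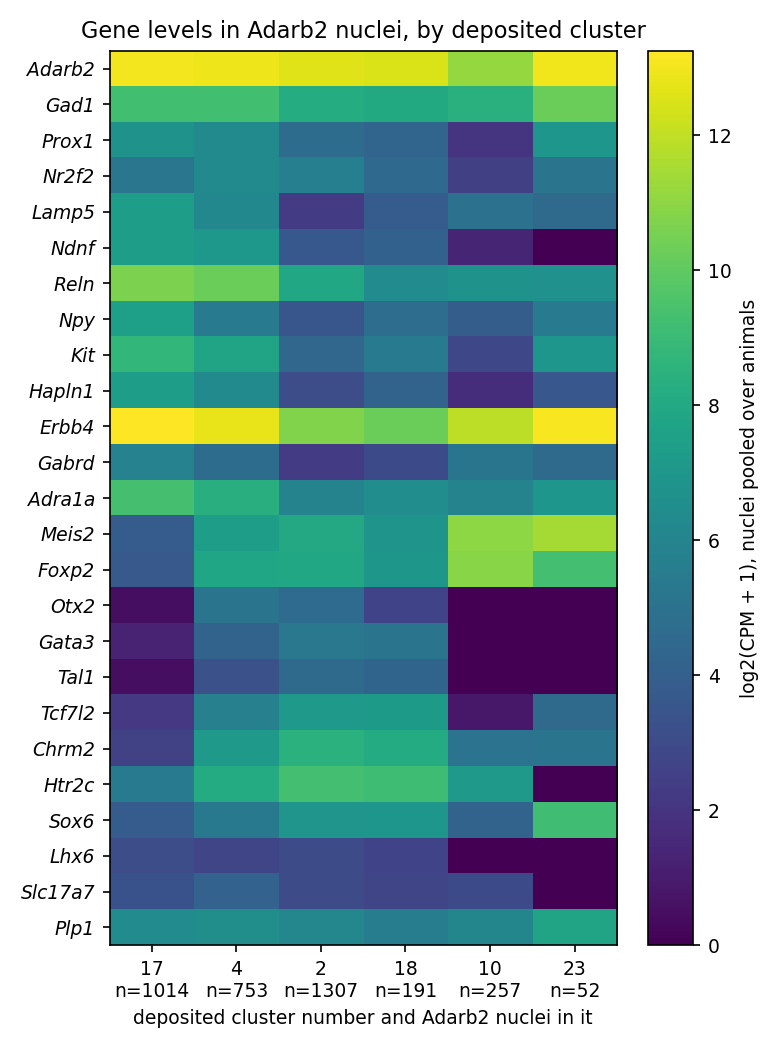
Levels of 25 marker genes in the Adarb2 nuclei of 6 deposited clusters, as log2(CPM + 1) with nuclei pooled over animals and columns ordered from cluster 17 to cluster 23. The neurogliaform genes (Lamp5 to Hapln1) are bright in clusters 17 and 4, the Meis2 and Foxp2 rows in clusters 10 and 23, and Chrm2 and Htr2c in clusters 2 and 18.

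Lamp5 was detected in 19.3% of Adarb2 nuclei, and in 8.02% after each nucleus was thinned to 1500 UMIs. At that depth it was detected in 18.8% of cluster 17, 9.38% of cluster 4 and 0.61% of cluster 2. Oligodendrocytes, which should lack it, gave 1.27% at the same depth, so the share in cluster 2 was at background. That value comes from 3000 oligodendrocytes drawn from the 21450 with at least 1500 UMIs (median of those drawn 1798 UMIs), since the median over all oligodendrocytes was 1249 UMIs. Ndnf gave 19.6% in cluster 17 and 1.15% in cluster 2, against 0.30% in oligodendrocytes. Lamp5 and Meis2 rarely met in a nucleus: 251 Adarb2 nuclei (6.95%) had 2 or more UMIs of Lamp5, 469 (12.99%) had 5 or more of Meis2, and 3 had both. Of the nuclei with 2 or more Lamp5 UMIs, 80.9% lay in cluster 17, and of those with 5 or more Meis2 UMIs, 1.28% did.

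The receptor genes also differed between clusters 17 and 2, again as a description, since the clusters were made from the same RNA. Over all 10794 genes tested, 42.7% were higher in cluster 17. Of 14 GABA receptor genes, 8 were higher in cluster 17. The delta subunit Gabrd, which forms extrasynaptic receptors, stood at 59.1 ± 20.6 against 3.79 ± 3.56 CPM, the GABA-B subunit Gabbr2 at 978 ± 75.3 against 292 ± 55.3 CPM, and Gabrg3 at 3147 ± 359 against 1088 ± 136 CPM (mean ± SD, n = 17). Gabra2 and Gabrg1 showed the opposite order, at 130 ± 26.0 against 349 ± 53.7 CPM and 3.98 ± 3.09 against 71.0 ± 25.9 CPM.

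Of 16 glutamate receptor genes, 10 were higher in cluster 17. The NMDA receptor subunit Grin2a stood at 3268 ± 457 CPM there and 548 ± 97.8 CPM in cluster 2, and the kainate receptor subunit Grik1 at 1989 ± 391 and 592 ± 147 CPM. The metabotropic receptor Grm7 was lower, at 199 ± 39.1 against 1634 ± 268 CPM. Among modulator receptors, 8 of 16 were higher in cluster 17, including the adrenergic receptor Adra1a (649 ± 96.4 against 58.2 ± 17.2 CPM) and the nicotinic subunit Chrna7 (290.5 ± 69.8 against 95.6 ± 33.0 CPM). The serotonin receptor Htr2c and the muscarinic receptor Chrm2 belonged to cluster 2, at 636 ± 116 and 363 ± 85.5 CPM, against 49.6 ± 44.0 and 4.66 ± 5.97 CPM in cluster 17. The neuregulin receptor Erbb4 and one of its ligands, Nrg1, ran in opposite orders: Erbb4 at 9737 ± 1139 CPM in cluster 17 and 1654 ± 445 CPM in cluster 2, Nrg1 at 609 ± 158 and 2704 ± 427 CPM.

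The rule's lower limit on Adarb2 passed through nuclei of which few lay in cluster 17, against 28.1% of all Adarb2 nuclei. The 187 nuclei just inside it, with 5 Adarb2 UMIs, had 4.81% in cluster 17 and 25.1% in cluster 10, and the 192 nuclei with 4 UMIs had 5.21% and 24.0%. Meis2 stood at 864 CPM just inside and 909 CPM just outside, and Lamp5 at 30.5 and 31.1 CPM. Reln stood at 238 and 315 CPM, and Prox1 at 16.4 and 5.56 CPM. Of all GABAergic nuclei, 5979 had no Adarb2 UMI, 1322 had 1 to 4 and 4085 had 5 or more.

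Against Vip interneurons (451 nuclei under the same gates with at least 1 Vip UMI), the Adarb2 nuclei were highest by within-animal ratio for Gm32647, Foxp2, Gpc5, Cdh18 and Chrm2, genes that led cluster 2 or 10. Among the 10 genes lowest against Vip interneurons, besides Vip itself, were Synpr (a synaptic vesicle protein, 241 ± 68.2 against 1787 ± 319 CPM), Kcnt2 (a potassium channel, 246 ± 38.1 against 998 ± 221 CPM) and Igf1 (a growth factor, 110 ± 22.8 against 416 ± 147 CPM; mean ± SD, n = 17). Sst interneurons (430 nuclei) had at least 2 Sst UMIs. Sox6 interneurons (1086 nuclei) had at least 5 Sox6 UMIs, at most 1 of Sst and 0 of Vip. Both classes had under 5 Adarb2 UMIs, so the lead of Adarb2 over them was fixed by the gates. Other leading differences included the calcium channel subunit Cacna2d1 (767 ± 102 CPM against 41.4 ± 22.9 in Sst and 22.6 ± 11.6 CPM in Sox6 interneurons). Among the genes lower in Adarb2 nuclei was the chromatin organiser Satb1 (26.2 ± 7.05 against 328 ± 74.0 and 285 ± 34.0 CPM).

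Treatment groups were then compared, first for Malat1, the target of all 3 compounds. Malat1 took 5.48%, 4.77%, 5.70% and 2.97% of the UMIs of Adarb2 nuclei in saline replicates 1 to 4. It took 5.24%, 4.61%, 5.19% and 3.38% in Malat1 ASO replicates 1 to 4. The anti-TfR:Malat1 animals had a lowest value of 3.28%, a median of 4.23% and a highest of 5.34%, and the 3 OTV:Malat1 animals had 3.36%, 3.79% and 2.43%. Of the OTV:Malat1 animals, 1 of 3 lay below every saline animal, since saline replicate 4 was lower than OTV:Malat1 replicates 1 and 2. The saline mean was 4.73 ± 1.24% (SD, n = 4), against which Malat1 ASO averaged 4.60 ± 0.87% (n = 4) and anti-TfR:Malat1 4.37 ± 0.81% (n = 6). The OTV:Malat1 mean was 3.19 ± 0.70% (n = 3), or 67.4% of the saline mean. These rest on 12928 to 88889 Malat1 UMIs per animal. Pooled over all animals, Malat1 was 61516 CPM in cluster 10 and 55019 CPM in cluster 18. It was 42881, 39541 and 35942 CPM in clusters 2, 17 and 4. Clusters 10 and 18 held 7.58 ± 5.49% and 7.78 ± 6.18% of Adarb2 nuclei in saline. In OTV:Malat1 they held 6.04 ± 3.02% and 1.93 ± 1.16%. The part of these shares in the group means was not tested.

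**Figure D2:**
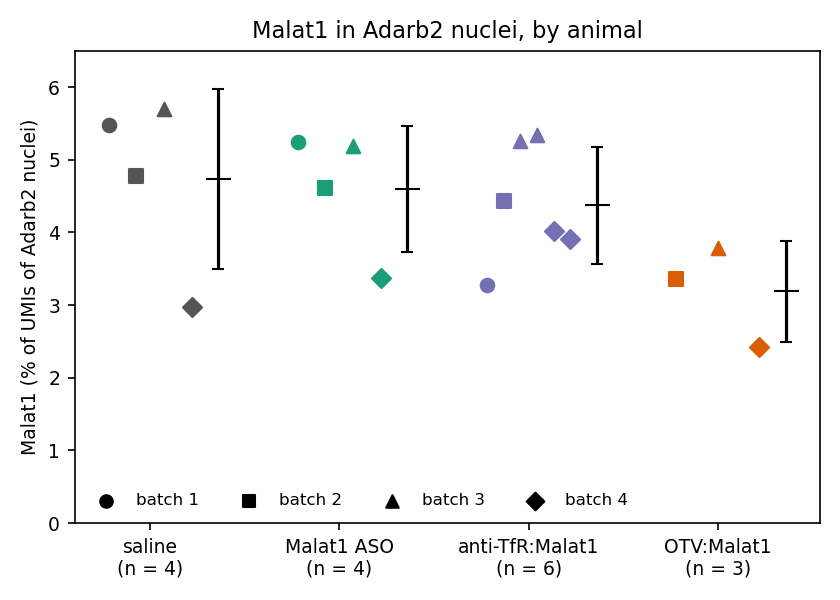
Malat1 as a percent of the UMIs of Adarb2 nuclei (vertical axis), 1 point per animal by group, with marker shape giving the deposited batch and bars the mean ± SD. The batch 4 animals are the lowest in every group but anti-TfR:Malat1. There they have 4.03% and 3.91%, and the batch 1 animal is lowest at 3.28%.

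In edgeR's quasi-likelihood fit of all 17 animals, Malat1 was lower in OTV:Malat1 than in saline by a log2 fold change of -0.62 (SE 0.18, adjusted p = 1.00 by Benjamini-Hochberg over all genes), which did not pass the threshold of 0.05. Before adjustment Malat1 was lower in both OTV:Malat1 comparisons, at an edgeR p of 0.0017 against saline and 0.0040 against anti-TfR:Malat1. At an unadjusted p under 0.05, 1.54% of the other genes were lower against saline and 2.54% against anti-TfR:Malat1. The 5 other genes of lowest edgeR p had 0.00099 to 0.0018 against saline and 0.0001 to 0.0010 against anti-TfR:Malat1. Against anti-TfR:Malat1 the Malat1 log2 fold change was -0.52 (SE 0.17, edgeR adjusted p = 0.951). Anti-TfR:Malat1 differed from saline by -0.09 (SE 0.15, edgeR adjusted p = 1.00) and Malat1 ASO by -0.03 (SE 0.16, edgeR adjusted p = 1.00), both smaller than their standard errors and above an unadjusted p of 0.05, where 1.45% and 1.2% of the other genes were lower. In an exact permutation test of this gene alone (two-sided, over animals), OTV:Malat1 differed from saline by -0.55 in log2(CPM + 1) (p = 0.171, where 0.0571 is the smallest possible) and from anti-TfR:Malat1 by -0.46 (p = 0.0714, smallest 0.0238).

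Within batches the OTV:Malat1 animals were below saline in 3 of 3 batches, by -0.51, -0.59 and -0.29 in batches 2, 3 and 4, and below anti-TfR:Malat1 by -0.40, -0.48 and -0.71. With animals permuted only within batches, the mean differences were -0.46 (exact p = 0.25, the smallest possible) and -0.53 (exact p = 0.111, the smallest possible). The anti-TfR:Malat1 difference from saline changed direction between batches, at -0.74, -0.11, -0.11 and 0.41 in batches 1 to 4. Without OTV:Malat1 replicate 2, the animal rich in oligodendrocyte RNA, the edgeR difference from saline was -0.73 (adjusted p = 1.00), and without Malat1 ASO replicate 1 the Malat1 ASO difference was -0.08 (adjusted p = 1.00). Testing all detected genes with no filter on low counts brought Malat1 past the threshold against saline (log2 fold change -0.63, adjusted p = 0.0100) and against anti-TfR:Malat1 (-0.53, adjusted p = 0.0305). This was the only one of 21 and 23 alternatives to do so, and adjusted p ran up to 1.00 over the others. The lowest edgeR adjusted p of the others was 0.269 against saline, in cluster 17 alone (log2 fold change -0.86). Against anti-TfR:Malat1 it was 0.391, with the deposited batch as a block (log2 fold change -0.54). With that block the log2 fold change against saline was -0.60 (edgeR adjusted p = 0.424). Before adjustment, edgeR p for Malat1 in this blocked fit fell to 3.9e-05 with saline as the control. With the antibody carrier as the reference it fell to 5.1e-05. Cluster 17 alone, without the block, gave an unadjusted edgeR p of 4.5e-05 relative to saline. Leaving out OTV:Malat1 replicate 3 instead raised the unblocked p to 0.024 relative to saline. Relative to the antibody carrier it rose to 0.052.

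Per nucleus, at 1500 UMIs, the median Malat1 count was 74, 66, 70 and 41 UMIs in saline replicates 1 to 4 and 45, 50 and 35.5 UMIs in the OTV:Malat1 animals. The 10th percentiles of the OTV:Malat1 animals, 18.9 to 23.1 UMIs, lay below the 26 to 51 UMIs of saline, whereas the medians overlapped through saline replicate 4. No Adarb2 nucleus of any animal was without Malat1 at this depth. Low nuclei were then counted as those under 35 Malat1 UMIs, which is the 10th percentile of saline nuclei with the saline animals weighted equally. Most saline nuclei under that limit came from saline replicate 4, and the 10th percentiles of the other 3 saline animals were 42 to 51 UMIs. Nuclei under 1500 UMIs were left out, 6 from saline, 7 from Malat1 ASO, 11 from anti-TfR:Malat1 and 8 from OTV:Malat1.

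The low share was 1.14%, 3.50%, 1.96% and 31.6% in saline replicates 1 to 4, and 30.8%, 22.8% and 48.0% in OTV:Malat1 replicates 1 to 3. Malat1 ASO replicates had 2.60%, 3.12%, 2.34% and 24.3%, and the anti-TfR:Malat1 share ran from 0.518% to 18.3%. The 3 OTV:Malat1 animals all lay above the 6 anti-TfR:Malat1 animals, by 26.2 percentage points on average (exact permutation p = 0.0238, the smallest possible; within batches 28.2 points, exact p = 0.111, the smallest possible). They overlapped saline through saline replicate 4, at a mean difference of 24.3 points (exact permutation p = 0.171; 31.6 points and p = 0.1, the smallest possible, without that animal). Malat1 ASO and anti-TfR:Malat1 differed from saline by -1.47 and -1.94 points (exact permutation p = 0.857 and 0.781), and without Malat1 ASO replicate 1 the former was 0.36 points (exact permutation p = 0.971).

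**Figure D3:**
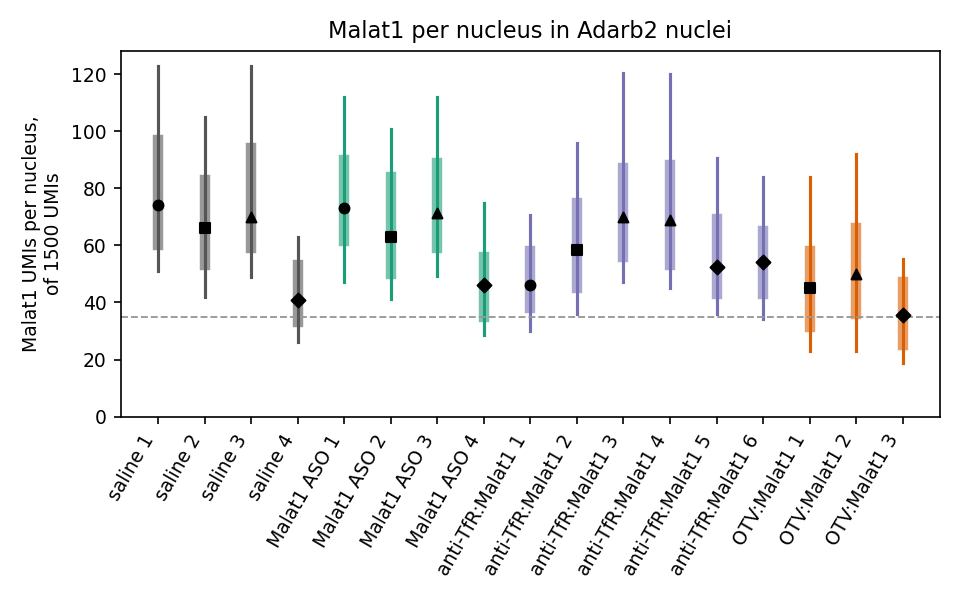
Malat1 UMIs per Adarb2 nucleus after thinning to 1500 UMIs (vertical axis), for each animal. Black markers are medians, with shape giving batch, thick bars the middle 50% and thin lines the 10th to 90th percentile; the dashed line at 35 UMIs is the limit for a low nucleus, which the thick bars of OTV:Malat1 animals 1 and 3, saline 4 and Malat1 ASO 4 reach.

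Malat1 in Adarb2 nuclei was set against 5 other classes of the same animals, so that each animal served as its own reference. In saline, Adarb2 nuclei had 4.73% of their UMIs in Malat1, close to Vip interneurons at 4.88 ± 1.22% and below Sst interneurons at 6.35 ± 1.93%, Sox6 interneurons at 6.36 ± 1.73%, excitatory neurons at 7.65 ± 1.81% and oligodendrocytes at 10.4 ± 1.81% (SD, n = 4). In OTV:Malat1, excitatory neurons (5.17 ± 0.87%) and Sst interneurons (3.52 ± 1.18%) had means above the 3.19% of Adarb2 nuclei, and Vip interneurons were at 3.10 ± 0.34%. Sox6 interneurons at 2.28 ± 0.70% and oligodendrocytes at 1.56 ± 0.20% lay below them (SD, n = 3). In single animals, the log2 ratio to the saline animal of the batch ran from -0.59 to -0.29 in Adarb2 nuclei, from -1.60 to -1.23 in Sox6 interneurons and from -2.86 to -2.52 in oligodendrocytes, without overlap.

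As a test, the within-animal difference of log2(CPM + 1) between Adarb2 nuclei and each class was compared between groups, in 20 comparisons with p-values adjusted over all 20. Against oligodendrocytes, which myelinate axons, Adarb2 nuclei moved from -1.16 ± 0.19 in saline to -0.69 ± 0.16 with the antibody carrier and 1.02 ± 0.27 with OTV:Malat1 (SD over animals). The change was 2.18 for OTV:Malat1 against saline (exact permutation p = 0.0571, the smallest possible, adjusted 0.163), 1.71 against anti-TfR:Malat1 (adjusted 0.143; exact p = 0.0238 before adjustment, the lowest attainable) and 0.47 for anti-TfR:Malat1 against saline (exact p = 0.0190, adjusted 0.143). Each of these held in every batch, with 2.03 to 2.27 for the first, 1.43 to 1.96 for the second and 0.18 to 0.79 for the third.

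Against Sox6 interneurons, a class that includes parvalbumin cells, the change was 0.93 for OTV:Malat1 against saline (exact permutation p = 0.0571, the smallest possible, adjusted 0.163) and 0.85 against anti-TfR:Malat1 (adjusted 0.143; exact p = 0.0238 before adjustment, the lowest attainable). Batches gave 0.82 to 1.09 and 0.60 to 1.10. Against Vip interneurons the change was 0.07 and 0.04 (exact permutation p = 0.457 and 0.571), with as few as 13 Vip nuclei in an OTV:Malat1 animal. Against excitatory neurons it was -0.00430 and -0.04 (exact permutation p = 0.8 and 0.5). Against Sst interneurons it was 0.31 for OTV:Malat1 against saline (exact permutation p = 0.0571) and 0.22 against anti-TfR:Malat1 (exact p = 0.262). In the latter, batches 2 to 4 gave -0.04, -0.03 and 0.70. For Malat1 ASO against saline it was 0.32 (exact p = 0.0286, the smallest possible, adjusted 0.143). Some animals had as few as 11 Sst nuclei. None of the 20 comparisons passed 0.05 after adjustment.

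**Figure D4:**
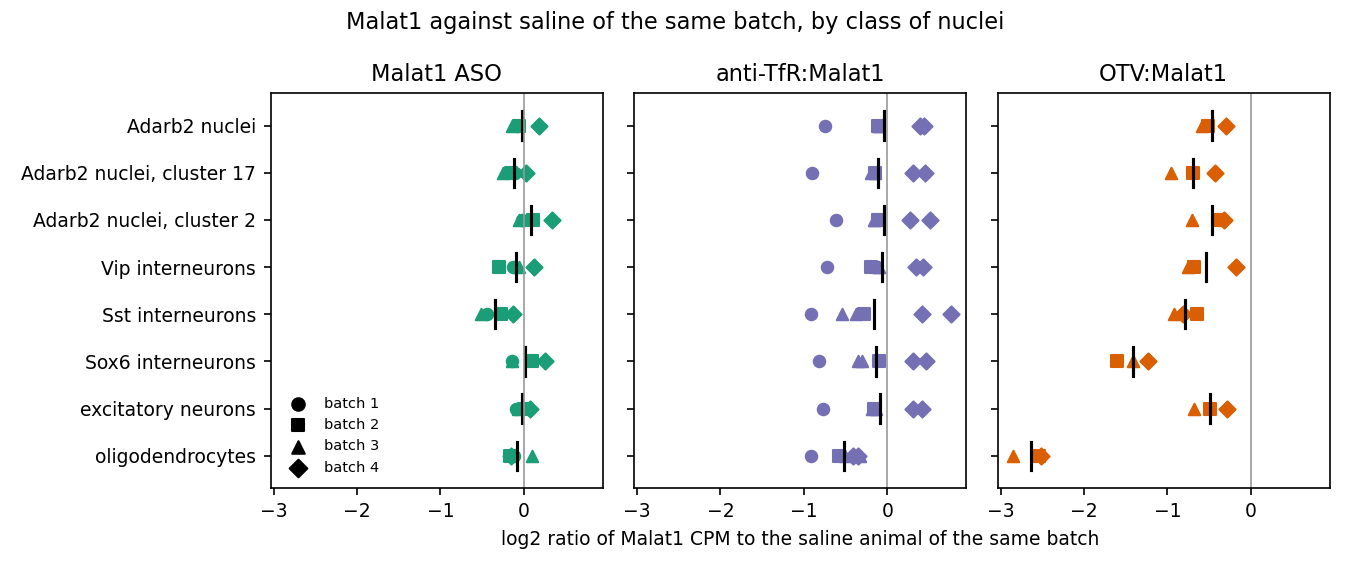
Log2 ratio of Malat1 CPM in each treated animal to the saline animal of its batch (horizontal axis) for 8 classes of nuclei (rows) in the 3 treated groups; points are animals, with shape giving batch, and vertical bars are means. In OTV:Malat1 the Adarb2 nuclei lie between -0.59 and -0.29, overlapping Vip interneurons and excitatory neurons but not Sst interneurons (-0.91 to -0.64), Sox6 interneurons or oligodendrocytes.

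The neurogliaform-like cluster 17 was compared with cluster 2 for Malat1, a comparison chosen after the clusters had been seen. Malat1 in cluster 17 was 5.12%, 4.42%, 5.43% and 2.72% in saline and 2.74%, 2.79% and 2.02% in OTV:Malat1, with cluster 2 at 5.08%, 4.42%, 5.86% and 2.98% in saline and 3.38%, 3.59% and 2.39% in OTV:Malat1. The log2 difference from saline was -0.78 in cluster 17 and -0.53 in cluster 2 (exact permutation p = 0.171 for both), and 1 of 3 OTV:Malat1 animals lay below every saline animal in each. The difference between the clusters within an animal shifted by -0.25 in OTV:Malat1 against saline (exact permutation p = 0.0571, the smallest possible, adjusted 0.171 over 4 comparisons), by -0.21 in Malat1 ASO (exact p = 0.0857) and by -0.09 in anti-TfR:Malat1 (exact p = 0.314). Batches 2 to 4 gave -0.30, -0.25 and -0.11 for OTV:Malat1. Each animal gave 31 to 82 nuclei of cluster 17. In cluster 4, with 16 to 79 nuclei per animal, Malat1 was 4.25 ± 1.22% in saline (n = 4), 3.82 ± 0.47% in anti-TfR:Malat1 (n = 6) and 2.84 ± 0.28% in OTV:Malat1 (n = 3). All 3 OTV:Malat1 animals lay below every anti-TfR:Malat1 animal there (log2 difference -0.42, exact permutation p = 0.0238, the smallest possible and unadjusted), and 1 of 3 did in clusters 17 (-0.62, exact p = 0.0714) and 2 (-0.46, exact p = 0.0952). Whether the clusters differed in this was not tested for cluster 4.

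Like Malat1, no other gene passed in any of the 4 comparisons: edgeR found 0 of 10793 genes (0%) past an adjusted p of 0.05. At an unadjusted p under 0.05 edgeR gave 271 (2.51%), 324 (3%), 388 (3.59%) and 552 genes (5.11%) in the comparisons of Malat1 ASO, anti-TfR:Malat1 and OTV:Malat1 with saline and of both carriers with each other. DESeq2 also found 0 genes past the adjusted threshold, with 157, 214, 241 and 379 at an unadjusted p under 0.05. The same saline animals served in 3 of these comparisons.

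Malat1 aside, the genes of lowest p were different in each comparison and none passed. Against saline, Malat1 ASO had Gm32647 at 526 ± 151 against 310 ± 75.4 CPM and Pax3, a transcription factor of dorsal midbrain and hindbrain, at 7.79 ± 4.75 against 25.2 ± 4.05 CPM (both adjusted p = 0.839 in edgeR). Anti-TfR:Malat1 had Gm47757, Pik3cb and Gli3 (adjusted p = 1.00 each in edgeR). OTV:Malat1 against saline had the histone demethylase Kdm4d at 22.1 ± 3.69 against 9.57 ± 1.00 CPM and the tubulin Tuba1a at 74.1 ± 25.6 against 36.9 ± 17.5 CPM (adjusted p = 1.00 each in edgeR). OTV:Malat1 against anti-TfR:Malat1 had Trf, the transferrin gene, at 32.2 ± 21.1 against 12.9 ± 3.28 CPM (log2 fold change 1.37, edgeR adjusted p = 0.951). Trf was 32.1, 53.4 and 11.3 CPM in OTV:Malat1 replicates 1 to 3. It was highest in replicate 2, the animal with the most oligodendrocyte RNA. Replicate 1 had 123 CPM of oligodendrocyte genes, within the 60.8 to 155 CPM of anti-TfR:Malat1 animals, whose Trf ran from 7.40 to 15.8 CPM. Trf is made by oligodendrocytes, and the part of oligodendrocyte RNA was not tested. Without OTV:Malat1 replicate 3, 2 genes passed in this comparison, Trf (log2 fold change 1.67, edgeR adjusted p = 0.0195) and Adamtsl1 (-0.94, edgeR adjusted p = 0.0214), both named after their values were seen.

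In the gene lists, 0 genes rose and 0 fell in every comparison. Of the 7 nuclear long noncoding RNAs other than Malat1 that were tested, none passed in OTV:Malat1 against saline, with a median log2 fold change of -0.06 against -0.00 over all genes. Meg3, a maternally expressed RNA, stood at 9911 CPM in saline and 10008 CPM in OTV:Malat1, and Snhg11, a snoRNA host, at 7070 and 7008 CPM. Neat1, the paraspeckle RNA that neighbours Malat1, was too low to test, at 4.38 ± 3.70 CPM in saline (n = 4) and 8.43 ± 2.57 CPM in OTV:Malat1 (n = 3). Of the 14 genes of speckle and paraspeckle proteins, 0 passed, with a median of 0.03; Srrm2, a scaffold of speckles, stood at 792 and 920 CPM.

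Iron and transferrin receptor genes were of interest because both carriers bind TfR. Tfrc, the TfR gene, was counted with the mouse genome mm10. Whether RNA of the knocked-in human sequence was counted with it was not tested. Adarb2 nuclei held 11 to 42 UMIs of Tfrc per animal. Tfrc stood at 26.5 ± 3.36 CPM in saline and 24.3 ± 3.95 CPM in Malat1 ASO. It was 22.9 ± 3.68 CPM with the antibody carrier and 24.1 ± 6.04 CPM with OTV:Malat1, with log2 fold changes between -0.19 and 0.02 (SE 0.19 to 0.23). Of 7 iron genes tested none passed; the median was -0.04 in OTV:Malat1 against saline and 0.19 against anti-TfR:Malat1, where the ferritin genes Fth1 and Ftl1 had log2 fold changes of 0.55 and 0.86 (edgeR adjusted p = 0.951 each). The 5 oligodendrocyte genes tested had medians of 0.47 and 0.55 in the same comparisons, the highest of any list in them, and the summed level of all 6 genes of the list ranged from 97.6 to 306 CPM in OTV:Malat1, 60.8 to 155 in anti-TfR:Malat1 and 85.4 to 166 CPM in saline. Whether oligodendrocyte RNA bore on the ferritin values was not tested.

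Synaptic and stress genes likewise gave no call. Over OTV:Malat1 against saline, the medians were -0.03 for 14 GABA receptor genes, 0.03 for 16 glutamate receptor genes and -0.03 for 14 synaptic adhesion genes. The neurogliaform genes had a median of -0.04 (8 of 8 tested). Of 11 immediate early genes, which respond to neuronal activity, 8 were tested, and all 8 were below 0 in each carrier group against saline (OTV:Malat1, then anti-TfR:Malat1), with medians of -0.29 and -0.36, and 4 of 8 in Malat1 ASO, with -0.02. Of all genes tested except Malat1, 5427 and 5420 of 10793 were below 0 in these comparisons, which share the saline animals. None passed; Homer1 was lowest in p for OTV:Malat1 (129 CPM in saline, 96.7 CPM in OTV:Malat1, log2 fold change -0.42, SE 0.22, edgeR adjusted p = 1.00). Only 3 of 14 interferon genes and 6 of 10 p53 targets were high enough to test, with medians of 0.39 and 0.21.

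The share of Adarb2 nuclei among neurons did not differ between groups beyond the spread of animals. It was 3.83%, 3.23%, 1.67% and 2.16% in saline replicates 1 to 4 and 2.18%, 2.81% and 1.72% in OTV:Malat1, with means of 2.72 ± 0.98% and 2.24 ± 0.55%. The mean of Malat1 ASO was 2.66 ± 0.53% (n = 4) and that of anti-TfR:Malat1 2.59 ± 0.49% (n = 6). Exact permutation p ran from 0.357 to 0.943 over the 4 comparisons. Depth differed between animals, and the rule counts raw UMIs: saline replicate 1, the deepest at a median of 6070 UMIs per neuron, had the highest share, and OTV:Malat1 replicate 3, the shallowest at 3626, had 1.72%, but OTV:Malat1 replicate 2 had 2.81% at 3979. The part of depth in the share was not tested. Among GABAergic nuclei the share was 30.3 ± 2.82% in saline and 31.8 ± 4.00% in OTV:Malat1. Of the clusters, only 17 and 2 were tested as shares of Adarb2 nuclei. Neither differed beyond the spread of animals in OTV:Malat1 against saline. Cluster 17 held 29.0 ± 4.86% in saline and 26.0 ± 4.90% in OTV:Malat1 (exact permutation p = 0.343). Cluster 2 held 35.7 ± 3.32% and 33.1 ± 9.93% (exact permutation p = 0.629).

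**Figure D5:**
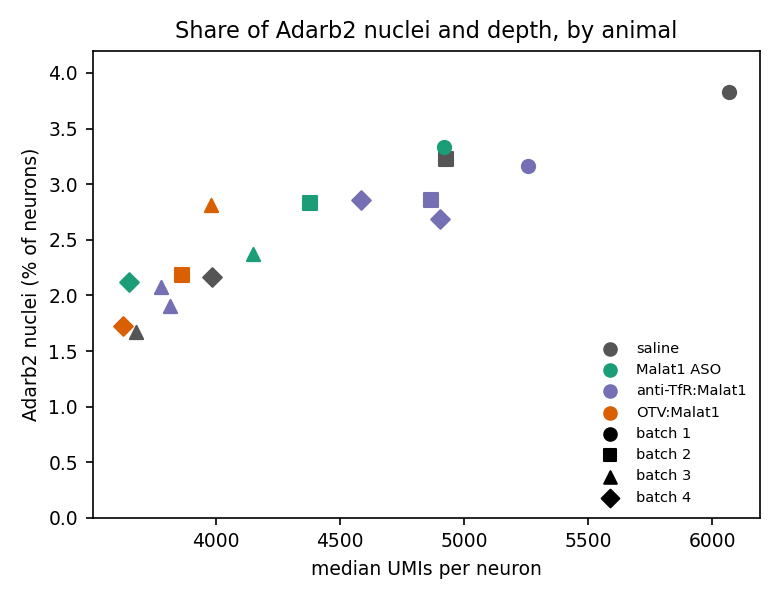
Share of neurons that were Adarb2 nuclei (vertical axis, percent) against the median UMIs per neuron (horizontal axis), 1 point per animal, with colour giving group and shape batch. Shares run from 1.67% in saline 3 to 3.83% in saline 1, the animal with the deepest neurons, and the 4 groups are intermixed.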

How the data were processed

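The deposited table held integer UMI counts for 26131 genes, and the authors deposited cell type labels, doublet calls, batch numbers and cluster numbers beside it. Per the submitters' processing notes, Cell Ranger 6.0.1 and Seurat 4 were used with mm10; no source used here names the doublet caller, whose score, a fraction from 0 to 1, the authors deposited. Nuclei that the authors called doublets were left out: of 5682 that otherwise met the rule, 2071 (36.45%) were removed. Of labelled neurons outside cluster 13, 23.27% were called doublets. Of the metadata columns, 9 were not used. The nuclei, gene lists, tests and reference classes were chosen with earlier results of these data known. UMIs were summed per animal, so p-values measure the spread between animals. Genes passing filterByExpr, scaled by TMM, were fitted with edgeR 4.0.16 (glmQLFit, glmQLFTest; R 4.3.3) over all 17 animals and adjusted by Benjamini-Hochberg; DESeq2 1.42.0 was an alternative. Standard errors are the fold change over the root of F. Single values were compared by exact two-sided permutation, counting the smaller tail for both sides (Python 3.11.15, numpy 2.4.6). Leading genes had at least 50 CPM, with 20 CPM added in ratios. Thinning drew UMIs without replacement. Named genes were the listed ones, the leading genes of clusters and classes, and, where no gene passed, the 5 of lowest p other than Malat1. The scripts were tested on simulated data.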

Additional observations from a re-analysis of the deposited data

Results flagged for a closer look

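In 33 group values examined for a sample far from the rest, 3 stood out. Chance flags about 1 in 20, but these values come from the same animals and are not independent. The count of flags is therefore not a test. The share of Adarb2 nuclei low in Malat1 was 31.6% in saline replicate 4, far above the other saline animals, and 24.3% in Malat1 ASO replicate 4, far above the other Malat1 ASO animals; both belong to batch 4. The log2 difference of Malat1 between Adarb2 nuclei and Sox6 interneurons was -0.28 in Malat1 ASO replicate 1, the animal with almost no Xist, above the other 3 of its group.

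The within-animal difference of Malat1 between Adarb2 nuclei and another class changed between groups, by an unadjusted exact permutation test, in 4 of 20 comparisons. For oligodendrocytes the change was 0.47 in anti-TfR:Malat1 against saline. Between OTV:Malat1 and anti-TfR:Malat1 it was 1.71. For Sox6 interneurons it was 0.85 in OTV:Malat1 against anti-TfR:Malat1. For Sst interneurons it was 0.32 in Malat1 ASO against saline. With animals permuted only within batches, exact p was 0.111 for the Sox6 change and 0.125 for the Sst change, each the smallest possible. None of the 4 passed after adjustment over the 20 (adjusted p = 0.143 for each, exact permutation).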

How the results depend on the processing

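Malat1 in OTV:Malat1 was below saline in 21 of 21 alternatives, by -0.86 to -0.46, and below anti-TfR:Malat1 in 23 of 23, by -0.69 to -0.37. With no filter on low counts it passed the threshold, at -0.63 and -0.53, and 5, 10, 4 and 9 other genes passed in the comparisons of Malat1 ASO, anti-TfR:Malat1 and OTV:Malat1 with saline and of OTV:Malat1 with the antibody carrier; the cause was not tested. The genes were Gm32647, Gm47283, Pax3, Tsix and Unc13c in the first and Gli3, Gm47283, Rftn1 and Tuba1a in the third. In Adarb2 nuclei of cluster 2, chosen after seeing the data, 1 gene passed in Malat1 ASO (Ebf1). Leaving out 1 animal at a time gave 0 to 2 genes in OTV:Malat1 against anti-TfR:Malat1.

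The Malat1 ASO difference changed sign outside cluster 17 (0.00387), in cluster 2 (0.073) and among leave-one-out values of -0.19 to 0.085; that of anti-TfR:Malat1 ran from -0.25 to 0.0058 in the latter. Against Vip interneurons, the OTV:Malat1 change from anti-TfR:Malat1 was -0.021 at 10 or more Adarb2 UMIs and -0.027 to 0.14 without 1 animal, the OTV:Malat1 change from saline -0.0010 to 0.16, and the anti-TfR:Malat1 change -0.0016 with doublets kept. Against oligodendrocytes, the changes of 1.71 and 0.47 were 1.65 and 0.44 within batches, where the smallest possible exact p are 0.111 and 0.0556, the values found; without 1 animal the first was 1.56 to 1.81 and the Malat1 ASO change -0.022 to 0.13. The low share in OTV:Malat1 against anti-TfR:Malat1 was 28.8 points at the 25th percentile of saline, 28.2 within batches and 19.1 to 31.8 without 1 animal; without an OTV:Malat1 animal no exact p can fall under 0.0714. For anti-TfR:Malat1 it was 4.67 at the 25th percentile and -4.75 to 5.42 without 1 animal, and for Malat1 ASO -6.87 to 5.89. The share of neurons in Malat1 ASO was 0.023 points with doublets kept, 0.070 at 3000 or more UMIs and -0.41 to 0.31 without 1 animal. Without 1 animal it was -0.48 to 0.24 for anti-TfR:Malat1 and -0.83 to -0.12 for OTV:Malat1 against saline. For OTV:Malat1 against anti-TfR:Malat1 it was -0.64 to -0.094. As a share of GABAergic nuclei the differences were 2.21, 2.55 and 1.5 points in Malat1 ASO, anti-TfR:Malat1 and OTV:Malat1.

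Replicate numbers equalled the deposited batch in saline and Malat1 ASO, so they pair these 2 groups; same-numbered deviations correlated at 0.05 to 0.24, and 4 of 4 were best with their own number. The block changed no edgeR call there (Malat1 -0.02, 0 genes). In the other groups numbers and batches do not all match, with correlations of -0.15 to 0.19 for anti-TfR:Malat1. With the replicate number as a block, 1 gene passed in anti-TfR:Malat1 (Gm11844), Malat1 in OTV:Malat1 was -0.67, the oligodendrocyte changes were 1.81 and 0.43 (exact p = 0.25 and 0.125) and the low share 25.0 points (exact p = 0.25), each the smallest p that this design allows. With 3 OTV:Malat1 animals no exact test against saline can fall under 0.0571, and a low count of nuclei limits single clusters.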
